A study of Mus musculus with 6 samples.

Results

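The nuclear genes of respiratory complexes II to V were followed in bone marrow-derived macrophages, which differentiate from marrow cells in a dish. Members were taken from the gene table by symbol: the succinate dehydrogenase genes Sdha to Sdhd, all symbols that begin with Uqcr, Cox4 to Cox8 or Atp5, and the cytochrome genes Cyc1 and Cycs. The rule used no measured value and found 43 of 10551 genes. They comprised 4 genes of complex II, 9 of complex III, 13 of complex IV, 15 of complex V and the gene of cytochrome c. The remaining gene, Atp5sl, carries an ATP synthase name but is not a subunit of that enzyme. All cells came from strain C57BL/6J, and 3 control libraries were compared with 3 libraries of a macrophage-specific Dhps knockout, given the genotype name Dhps_delta_Myel. The product of Dhps, deoxyhypusine synthase, carries out the first of the reactions that turn a lysine of the translation factor eIF5A into hypusine. Age, sex, stimulus, growth factor, the allele of the controls and the promoter that drives the deletion are not stated in the labels. Whether each library had its own animal or dish is not stated either, so the p-values rest on the spread among these samples and that spread may be technical. Below, controls and knockouts stand for the libraries of each group, given in the order of their replicate numbers.

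The respiratory chain sits in the inner mitochondrial membrane and passes electrons from nutrients to oxygen. Complex II takes electrons from succinate, complex III hands them to cytochrome c, and complex IV passes them on to oxygen. Complexes III and IV pump protons, and complex V, the ATP synthase, lets the protons flow back while it makes ATP. Most subunits are encoded in the nucleus, and a few of the core subunits in mitochondrial DNA. Inflammatory activation of macrophages is known to shift energy supply towards glycolysis, and succinate oxidation by complex II is a known source of signals in that state. Hypusinated eIF5A acts on translation, which transcript counts do not measure.

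The labels were checked first. Dhps lay at 24.1, 20.9 and 23.4 CPM (counts per 1000000 counts of the library, after scaling) in control and at 13.2, 13.6 and 18.3 CPM in the knockouts. The log2 fold change of the targeted gene was -0.59 (SE 0.14) and did not pass (adjusted p = 0.214 in edgeR's quasi-likelihood test). Libraries held between 11648710 and 16224818 counts. All 10 macrophage markers on the list used were measured and summed to 23220 to 25850 CPM in the controls and 14120 to 16540 CPM in the knockouts, most of it Lyz2 (lysozyme), the only one of them to pass the test, which fell. Csf1r, the receptor for the macrophage growth factor, lay at 1093 ± 81.5 CPM in the controls, and 1003 ± 92.8 CPM in the knockouts (SD, n = 3 each). Log2 fold changes of the 10 were below 0 for 7 and above 0 for 3, among them Mrc1 (0.11) and Mertk (0.066). Besides Lyz2 (18040 ± 1542 against 8765 ± 701 CPM), Adgre1 (-0.18), Fcgr1 (-0.335) and C1qa (-0.28) were lower in every knockout than in every control. Over all genes, 5.45% were lower in this way and 5.73% higher. A sum without Lyz2 was not worked out, so the sums of this list mainly follow Lyz2 and do not describe the other markers. The groups overlapped for Csf1r, Cd68, Mertk, Itgam, Cd14 and Mrc1. Markers of neutrophils and their precursors (11 of 12 with a row) summed to 407 to 513 CPM in the controls, and 711 to 889 CPM in the knockouts. Of the 11, 5 passed the test, all higher, against 0.0948% of all genes on that side. In every knockout 8 of them were higher than in every control. The groups overlapped for Elane (log2 fold change 0.38), Csf3r (0.185) and Mmp8 (-0.020). Of the 5 platelet markers none passed. Pf4, which makes up most of their sum (1421 to 1713 CPM and 1195 to 1327 CPM), was lower in every knockout than in every control (log2 fold change -0.28). The other platelet markers, Ppbp (0.76), Itga2b (0.64), Tubb1 (1.54) and Gp9 (1.11), were higher in every knockout than in every control. Of these, Tubb1 (mean 0.458 CPM in the controls and 1.35 CPM in the knockouts) and Gp9 (0.720 and 1.56 CPM) lay near the floor. All 5 platelet markers had an unadjusted p under 0.05 in edgeR's test, against 3.84% of all genes on the higher side and 2.64% on the lower side. Stromal markers (2 of 6 with a row, both higher and past the test) summed to 0.785 to 1.30 CPM and 4.06 to 8.40 CPM, and B and plasma cell markers (2 of 4) to 0.957 to 2.70 CPM and 2.39 to 4.18 CPM. No marker of erythroid cells or of T and NK cells had a row. In bulk RNA, fewer cells of a type and less RNA per cell cannot be told apart, and the part of these other cells in the results below was not tested.

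The members lay on 18 chromosomes, and 12 of 43 (27.9%) had the annotated start of a gene on the opposite strand within 1000 bases upstream, against 15.3% of 10181 genes of the table found by name in GENCODE. RefSeq promoter windows (build GRCm38.p6, the assembly also called mm10), from 250 bases before to 50 bases after a start site, were matched for 34 of the 43 members, with 38 windows. The others were Sdhc, Cyc1, Uqcrb, Uqcrc2, Uqcrq, Cox4i1, Cox6a2, Cox6c and Atp5a1. Motifs of factors known from respiratory gene promoters were searched on both strands. The strict NRF1 motif, a palindrome of 10 bases whose letters stand in capitals in the first stretch below, occurred in 4 of 38 member windows (10.5%), in 2.2% of the windows of all genes of the table and in 1.0% of all windows. The looser NRF1 motif, with the middle pair of bases free, includes every strict match and occurred in 26.3%, 13.7% and 6.2%. The ETS motif CCGGAAG, bound by factors such as GABPA, occurred in 31.6%, 18.7% and 8.9%. The YY1 motif ATGGCGG occurred in 10.5%, 8.4% and 4.1% of windows, but 2 of its 4 member windows are overlapping windows of Atp5sl. Counted per gene it was in 8.8% of members and 10.1% of genes of the table, so its direction turned, whereas the per-gene shares of the other motifs were also higher among members (11.8% against 2.6%, 29.4% against 16.0% and 35.3% against 21.9%). Median GC content of the windows was 56.8% for members, 60.7% for genes of the table and 52.7% for all windows. A match describes the letters and not a site in use.

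The stretches below show the 4 members with the strict NRF1 letters, followed by Uqcr10 and Atp5d, the members with the smallest p below and above a fold change of 0. All are 5′ to 3′ on the strand of the gene. Capitals mark matches to any of the 4 motifs. The Atp5g2 stretch is chr15:102671048-102671147, minus strand, and holds the match from position -42 relative to the start site. Atp5k is chr5:108434400-108434499, minus strand, with the match at -50. Cox6a1 is chr5:115349059-115349158, minus strand, with the strict match at -162 and a loose one at -117. In Uqcrc1 the match lies after the start site, from position 31, within chr9:108936668-108936697 on the plus strand. Uqcr10 is chr11:4704345-4704444, minus strand, and Atp5d chr10:80142215-80142314, plus strand, both the last 100 bases before the start site.
Atp5g2: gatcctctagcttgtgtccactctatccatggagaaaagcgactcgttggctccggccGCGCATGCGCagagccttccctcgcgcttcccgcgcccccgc
Atp5k: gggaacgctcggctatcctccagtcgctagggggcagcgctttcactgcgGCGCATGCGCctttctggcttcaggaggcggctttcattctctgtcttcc
Cox6a1: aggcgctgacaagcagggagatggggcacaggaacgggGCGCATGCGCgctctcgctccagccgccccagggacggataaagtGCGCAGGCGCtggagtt
Uqcrc1: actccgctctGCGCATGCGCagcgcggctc
Uqcr10: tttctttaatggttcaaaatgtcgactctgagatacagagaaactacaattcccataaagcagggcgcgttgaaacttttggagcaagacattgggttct
Atp5d: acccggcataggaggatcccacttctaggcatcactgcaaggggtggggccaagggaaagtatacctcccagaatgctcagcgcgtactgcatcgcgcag
The stretches of Uqcr10 and Atp5d hold none of the 4 motifs.

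Across the 43 members, no transcript passed the test between knockout and control (0 of 43, adjusted p of 0.495 or more in edgeR's quasi-likelihood test). Over all genes the test called 0.104% (0.0948% higher and 0.00948% lower), so a count of 0 among 43 is near the background and is no result about the members. DESeq2 also called 0 members (0.209% of all genes), as did limma-voom (0.0758%). At an unadjusted p under 0.05 there was 1 member on the lower side, Uqcr10, and none on the higher side, against 2.64% and 3.84% of all genes (6.48% in either direction). Log2 fold changes were below 0 for 32 members and above 0 for 11, with a median of -0.075, where 51.3% of all genes were below 0 and the median was -0.0040. Leaving out each library in turn gave medians from -0.10 to -0.058, and removing a trend with gene length gave -0.041 with 26 members below 0. The members' values range from -0.40 for Atp5l to 0.18 for Atp5d.

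The intervals of the fit bound the size of a difference more closely than the count of calls shows. They rest on the same spread among libraries, which may be technical. If it is, they are too narrow as a bound on the effect of the knockout. Of the 43 intervals (95%, for each gene alone), 39 lay wholly inside a 1.5-fold change in either direction. So did 7588 of the 10551 intervals over all genes, so intervals of this width are common in this fit. The outermost bound among these 39 was -0.51 on the log2 scale, for Uqcr10, which is a 1.43-fold difference. The exceptions were Cox6a2, Cox7a1, Atp5l and Atp5sl, the only members under 5 CPM, whose counts per library began at 12. Standard errors of the other 39 lay between 0.083 and 0.20 on the log2 scale.

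**Figure D1:**
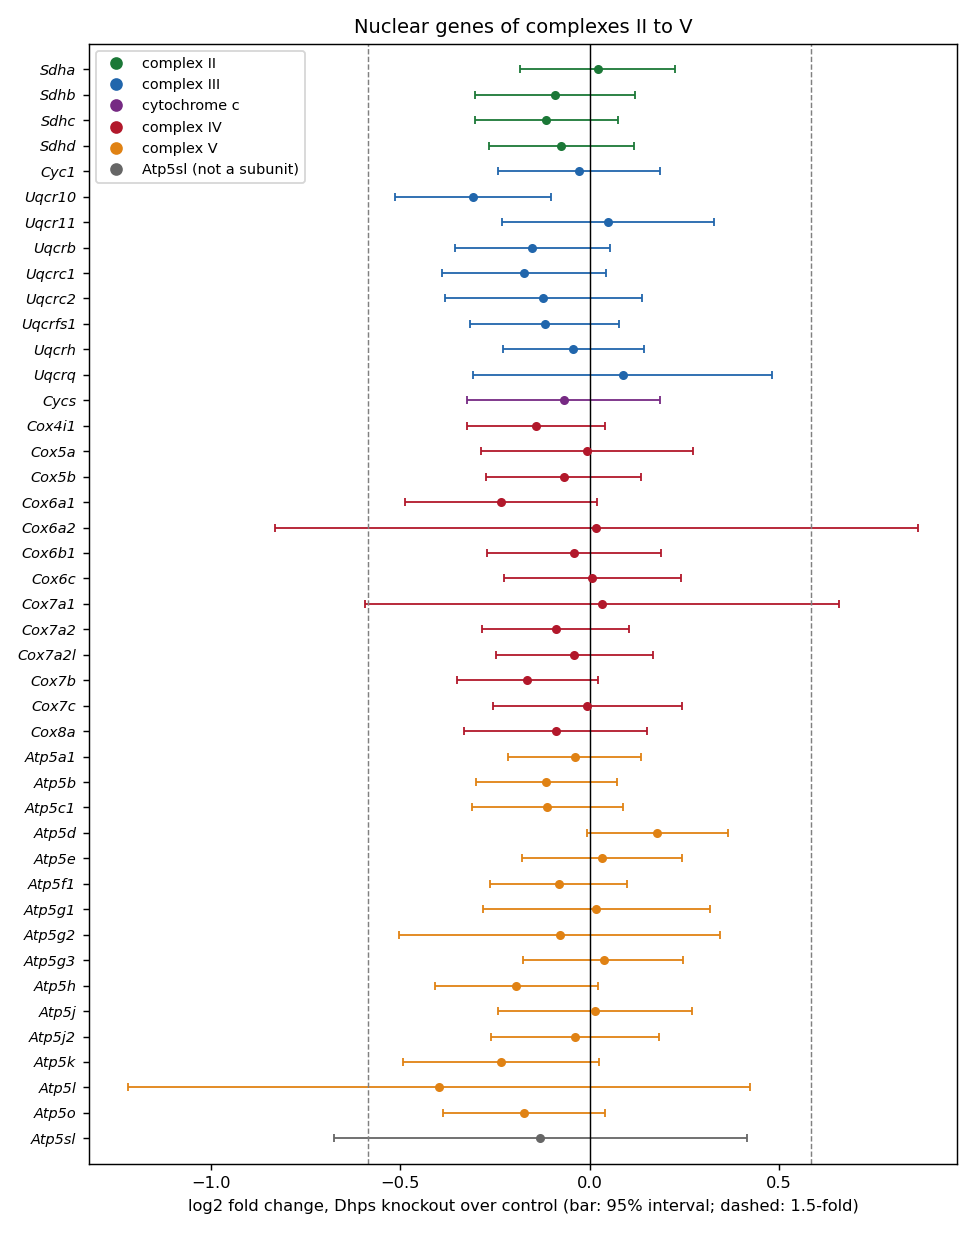
Log2 fold change of each member, Dhps knockout over control, with its 95% interval from edgeR as a bar and dashed lines at 1.5-fold. Points are coloured by complex. Most points lie slightly left of 0, the interval of Uqcr10 alone excludes 0, and the wide intervals belong to the 4 members under 5 CPM.

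Summed over all 43 members, normalized counts came to 4106, 3997 and 3992 CPM in the controls, and 3784, 3818 and 3891 CPM in the knockouts. Every knockout library lay below every control library, with a difference of -4.98% between the means (4032 ± 64.5 against 3831 ± 54.9 CPM, SD, n = 3 each). A sum over chosen genes was given no test, and no background from other sets of genes is given beside it. It weights the most abundant transcripts most. The sums are given without removal of the gene-length trend, and the sum of all members contains those of the complexes. The groups also did not overlap for complex III (554 to 580 CPM against 518 to 544 CPM) and for complex IV (1104 to 1150 CPM against 1040 to 1062 CPM). For complex II (327 to 368 CPM against 331 to 341 CPM) and complex V (1894 to 2005 CPM against 1813 to 1910 CPM) they overlapped. Without size factors the complex IV groups overlapped too, at 1085 to 1163 CPM and 1035 to 1087 CPM, while those of complex III and of all members did not. The neutrophil marker sum given above was higher in the same 3 knockout libraries, and its part here was not tested.

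**Figure D2:**
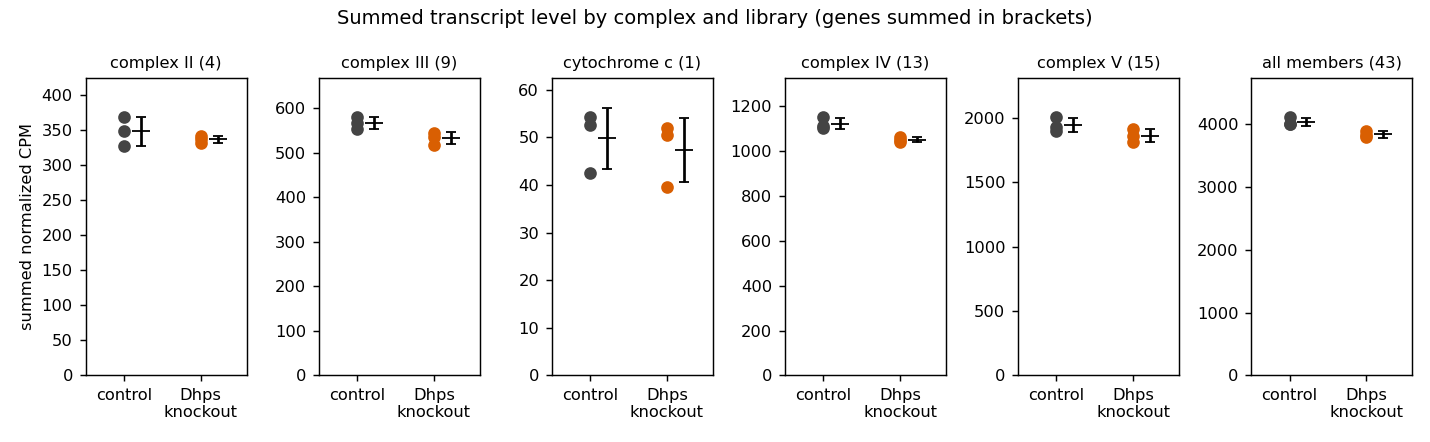
Summed normalized CPM of the members of each complex by library, with the group mean and SD (n = 3) beside the points and axes from 0. The number of genes summed is in brackets, and the panel of all members includes Atp5sl. Control and knockout points do not overlap for complex III, complex IV and all members, and the gaps are small beside the level itself.

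Complex II oxidises succinate to fumarate and is shared between the citric acid cycle and the respiratory chain. Its 4 subunits had log2 fold changes between -0.11 and 0.022, around a median of -0.083, and 3 of them lay below 0. Without control library 1 the median was -0.050 and Sdhb was at 0.0030, and with the length trend removed the median was -0.045. Sdha, the flavoprotein that binds succinate (chromosome 13, 74322255 to 74350240 in mm10), lay at 149, 118 and 135 CPM in the controls, and 133, 133 and 141 CPM in the knockouts. The knockout values fell within the range of the controls (log2 fold change 0.022, SE 0.097, adjusted p = 0.992). Sdhb, the iron-sulphur subunit (chromosome 4, 140961271 to 140979192), was at 77.9, 63.1 and 66.6 CPM in the controls, and 62.6, 66.5 and 65.7 CPM in the knockouts, again with overlap (-0.092, SE 0.10, adjusted p = 0.938). Sdhc, a membrane anchor that helps to form the quinone site (chromosome 1, 171129157 to 171150603), was at 66.8, 66.5 and 68.7 CPM in the controls, and 63.7, 60.4 and 62.5 CPM in the knockouts. Each knockout library was below each control library, by a small amount (-0.11, SE 0.090, adjusted p = 0.903). Sdhd, the other anchor, showed a log2 difference of -0.075 (adjusted p = 0.945).

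Complex II was also the most even complex in transcript level per length. In control libraries the mean level per kilobase of exon ran from 46.8 CPM per kb for Sdha to 64.5 CPM per kb for Sdhb, a 1.38-fold range, against 9.61-fold over the 9 genes of complex III. Of the complex II assembly factors, Sdhaf2, which helps to attach flavin to Sdha, lay at 43.0 ± 3.38 CPM in the controls, and 42.4 ± 4.29 CPM in the knockouts, and Sdhaf1, which serves the iron-sulphur subunit, at 2.403 ± 0.522 and 1.53 ± 0.579 CPM (log2 fold change -0.62, adjusted p = 0.838). The third measured factor, Sdhaf4, showed a log2 difference of 0.048 (adjusted p = 0.989).

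Complex III transfers electrons from ubiquinol to cytochrome c. Its 9 nuclear genes were centred at a median log2 fold change of -0.12. Of these, 7 lay below 0 and no gene passed. The redox subunits differed little. Uqcrfs1, the Rieske iron-sulphur protein (chromosome 13, 30540312 to 30545316), lay at 53.5, 53.9 and 51.9 CPM in the controls, and 46.4, 49.2 and 51.1 CPM in the knockouts. The groups did not overlap, though the highest knockout library was close to the lowest control library (-0.12, SE 0.093, adjusted p = 0.900), and they did overlap without size factors. Cyc1, cytochrome c1 (chromosome 15, 76343523 to 76345934), was at 32.3, 30.2 and 33.7 CPM in the controls, and 31.0, 32.6 and 30.6 CPM in the knockouts (-0.028, SE 0.10, adjusted p = 0.991). Its values overlapped fully.

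The core proteins Uqcrc1 and Uqcrc2 form the large matrix part of complex III. Uqcrc1 (chromosome 9, 108936648 to 108949641), whose strict NRF1 letters are printed above, was at 90.5, 73.3 and 84.2 CPM in the controls, and 68.5, 79.0 and 72.5 CPM in the knockouts, which overlap (-0.17, SE 0.10, adjusted p = 0.856). Uqcrc2 showed a log2 difference of -0.12 (adjusted p = 0.931), which was 0.0090 without knockout library 1. In GENCODE, 503 bases of its exons overlap those of Pdzd9 on the opposite strand. Whether the counting used strand is not known, so reads of such a pair cannot be told apart and the counts of these members are uncertain to that extent. The other members with an opposite-strand exon overlap were Uqcrb (50 bases), Cox4i1 (Emc8, 151 bases), Cox5a (269 bases), Cox6a2 (70 bases), Atp5a1 (Haus1, 119 bases), Atp5f1 (Wdr77, 334 bases), Atp5j (221 bases), Atp5l (133 bases) and Atp5o (111 bases).

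The largest relative difference in complex III was in a small subunit. Uqcr10 (chromosome 11, 4701968 to 4704344), a supernumerary subunit next to cytochrome c1, lay at 49.7, 56.7 and 53.4 CPM in the controls, and 45.5, 40.7 and 42.8 CPM in the knockouts. All knockout libraries were below all control libraries. The log2 fold change was -0.31 (SE 0.097, 95% interval -0.51 to -0.10), the smallest unadjusted p of any member (0.0057) but rank 119 among all genes, and it did not pass (adjusted p = 0.495). With 1 library left out it ranged from -0.36 to -0.26, and the adjusted p from 0.241 (without control library 1) to 0.961 (without control library 2). Uqcrb, which sits near the quinone site, was at 51.6, 59.9 and 58.2 CPM in the controls, and 53.0, 50.8 and 49.0 CPM in the knockouts, with overlap through control library 1 (-0.15, SE 0.097, adjusted p = 0.866). Uqcrh, the hinge protein beside cytochrome c1, showed a log2 difference of -0.043 (adjusted p = 0.982).

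The 2 complex III members above 0, Uqcr11 and Uqcrq, varied widely among control libraries. Uqcr11 ran from 67.1 CPM in control library 3 to 107 CPM in control library 2, a range that holds all 3 knockout values (84.8 to 99.8 CPM). Its log2 fold change was 0.048 and went from -0.11 to 0.22 with 1 library left out. Uqcrq was at 17.5, 10.03 and 10.96 CPM in the controls, and 15.3, 11.8 and 13.7 CPM in the knockouts (0.087, from -0.066 to 0.38 with 1 library left out). Neither sign was stable. The 5 measured assembly factors of complex III had a median of -0.11 and none passed. Among them Bcs1l, which inserts the Rieske protein, lay at 1.86 ± 0.481 CPM in the controls, and 1.51 ± 0.303 CPM in the knockouts (-0.31, adjusted p = 0.938).

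Cytochrome c carries electrons from complex III to complex IV and also triggers apoptosis once released. Its somatic gene Cycs (chromosome 6, 50562563 to 50566474) was at 52.6, 42.6 and 54.3 CPM in the controls, and 52.1, 39.6 and 50.5 CPM in the knockouts. The library with replicate number 2 was the lowest in each group. The log2 fold change was -0.068 (SE 0.12, adjusted p = 0.972), and it went from -0.17 to 0.043 with 1 library left out. Of the 100-base windows of its coding transcripts, 24.7% also occur in transcripts of other genes, 2 of which are pseudogenes. Hccs, which attaches haem to cytochrome c, lay at 13.7 ± 2.15 and 13.1 ± 0.745 CPM (-0.058, adjusted p = 0.986).

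Complex IV, cytochrome c oxidase, reduces oxygen to water. The catalytic core is encoded in mitochondrial DNA, and the nuclear subunits surround it. The 13 measured nuclear genes were centred at a median log2 fold change of -0.041. Of these, 10 lay below 0 and no gene passed. Removing the trend with gene length brought that median to -0.0010. Cox4i1, a subunit that joins early in assembly (chromosome 8, 120668225 to 120674209), lay at 324, 308 and 342 CPM in the controls, and 276, 295 and 311 CPM in the knockouts. The overlap came from the lowest control and the highest knockout library alone (-0.14, SE 0.086, adjusted p = 0.861). Cox5a (chromosome 9, 57521232 to 57532426) had nearly equal group means, 64.6 ± 14.8 CPM and 64.3 ± 3.93 CPM. Its control libraries were spread from 49.98 to 79.5 CPM (-0.0070, SE 0.13, adjusted p = 0.999).

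Among the smaller subunits, Cox6a1 and Cox7b had the smallest p. Cox6a1, the broadly expressed form of subunit VIa (chromosome 5, 115345654 to 115348955), was at 76.5, 57.2 and 53.1 CPM in the controls, and 53.9, 52.8 and 52.0 CPM in the knockouts. Control library 1 stood apart, and without it the log2 fold change went from -0.24 (SE 0.12, adjusted p = 0.827) to -0.060. Cox7b (X chromosome, 106015700 to 106022450) was at 106, 108 and 104 CPM in the controls, and 94.1, 100 and 89.9 CPM in the knockouts. These groups did not overlap (-0.16, SE 0.088, adjusted p = 0.835). The other broadly expressed subunits Cox5b, Cox6b1, Cox6c, Cox7a2, Cox7c and Cox8a had log2 fold changes between -0.090 and 0.0070.

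Cox7a2l encodes a factor that joins complexes III and IV into supercomplexes, and C57BL/6 strains are known to carry a short and unstable form of the protein. Its transcript was at 127, 146 and 116 CPM in the controls, and 131, 118 and 129 CPM in the knockouts, all within the range of the controls (-0.041, SE 0.098, adjusted p = 0.985). Muscle forms of complex IV subunits were near the floor. Cox7a1 lay at 2.21 ± 0.348 CPM in the controls, and 2.29 ± 0.520 CPM in the knockouts, and Cox6a2 at 1.29 ± 0.476 and 1.34 ± 0.521 CPM. Their broadly expressed partners were far higher per length: Cox7a2 had 133 CPM per kb against 6.05 CPM per kb for Cox7a1 in control libraries, and Cox6a1 had 117 against 1.96 CPM per kb for Cox6a2. The exons of Cox6a2 overlap those of Itgad on the opposite strand by 70 bases. Cox4i2, Cox6b2, Cox7b2, Cox8b and Cox8c were not analysed here, since the table used has no row for them.

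Complex V consists of the catalytic F1 head, the rotating c ring in the membrane and a peripheral stalk that holds the head still. Its 15 genes were centred at a median log2 fold change of -0.079. Of these, 10 lay below 0 and no gene passed. In the head, Atp5a1 (subunit alpha, chromosome 18, 77773768 to 77782868) was at 402, 373 and 377 CPM in the controls, and 357, 392 and 371 CPM in the knockouts, which overlap (-0.039, SE 0.083, adjusted p = 0.983). Atp5b (subunit beta, which holds the catalytic sites, chromosome 10, 128083307 to 128090388) was the member with the most counts, at 541, 461 and 501 CPM in the controls, and 434, 476 and 479 CPM in the knockouts. These also overlap (-0.11, SE 0.088, adjusted p = 0.900). Atp5c1, subunit gamma of the rotating shaft, showed a log2 difference of -0.11 (adjusted p = 0.909).

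Atp5d went the other way from most members. It encodes subunit delta at the foot of the rotating shaft (chromosome 10, 80142315 to 80145818) and lay at 74.6, 75.2 and 79.2 CPM in the controls, and 83.8, 88.3 and 87.1 CPM in the knockouts. Every knockout library was above every control library, by 13.2% between the group means, yet the difference did not pass (0.18, SE 0.089, adjusted p = 0.802). It stayed between 0.16 and 0.21 with 1 library left out, and it was the only 1 of the 11 members above 0 that kept its sign in every leave-one-out fit. The neighbouring shaft subunit epsilon, Atp5e, had 254 ± 16.2 CPM in the controls, and 259.8 ± 34.0 CPM in the knockouts (0.033, adjusted p = 0.990).

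Subunit c of the ring is made from 3 genes, Atp5g1, Atp5g2 and Atp5g3, whose products are known to differ in the targeting peptide and to give the same mature protein. Atp5g3 (chromosome 2, 73908447 to 73911326) was at 86.3, 70.7 and 72.4 CPM in the controls, and 80.9, 80.4 and 74.2 CPM in the knockouts (0.037, SE 0.10, adjusted p = 0.986). Atp5g1 (chromosome 11, 96072793 to 96075694) was at 24.6, 18.3 and 18.2 CPM and at 23.1, 17.8 and 20.8 CPM (0.017, SE 0.14, adjusted p = 0.993). Atp5g2 (chromosome 15, 102662868 to 102671047) was at 6.00, 7.97 and 6.26 CPM and at 7.496, 5.04 and 6.62 CPM (-0.079, SE 0.20, adjusted p = 0.986). All 3 overlapped between the groups. Per length, Atp5g3 made up 75.7% ± 1.04 of the subunit c transcripts in control and 76.4% ± 2.85 in knockout libraries, Atp5g1 16.7% ± 1.16 and 16.7% ± 1.68, and Atp5g2 7.58% ± 1.75 and 6.94% ± 1.17 (SD, n = 3 each). The mix of the 3 genes therefore differed by less than the spread between libraries. For Atp5g2, 34.7% of 100-base windows are shared with other genes, among them 2 annotated pseudogenes, so its share is uncertain.

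In the peripheral stalk and the membrane part, 6 of 7 genes were below 0. Atp5h, subunit d of the stalk (chromosome 11, 115415697 to 115419919), was at 112, 110.0 and 96.3 CPM in the controls, and 91.5, 83.3 and 104 CPM in the knockouts, with overlap through knockout library 3 (-0.19, SE 0.10, adjusted p = 0.834). Atp5o, the stalk subunit that gives sensitivity to oligomycin, showed a log2 difference of -0.17 (adjusted p = 0.851), and Atp5f1, subunit b, of -0.082 (adjusted p = 0.936). Atp5j2, subunit f of the membrane part, had -0.039 (adjusted p = 0.986). Atp5j, coupling factor 6, had 0.014 (adjusted p = 0.993), and 221 bases of its exons overlap Gabpa, the gene of an ETS factor, on the opposite strand. Atp5k, subunit e, which helps ATP synthases to pair (chromosome 5, 108433253 to 108434378), was at 62.0, 81.0 and 60.0 CPM in the controls, and 51.9, 65.5 and 55.7 CPM in the knockouts. Control library 2 was the highest of all, and without it the log2 fold change went from -0.23 (SE 0.12, adjusted p = 0.834) to -0.078.

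Atp5l, subunit g and the usual partner of subunit e, stood apart by its low level. It had 12 to 27 counts per library, 1.46 ± 0.521 CPM in the controls, and 1.10 ± 0.252 CPM in the knockouts (-0.40, SE 0.39, adjusted p = 0.924). Per length that was 2.85 CPM per kb in control libraries, against 232 CPM per kb for Atp5k. Of the 445 windows of 100 bases in its coding transcripts, 307 (69.0%) also occur in transcripts of other genes on either strand, the largest share of any member. Those other genes include 5 annotated pseudogenes elsewhere in the genome. Its count is therefore uncertain as a measure of the gene. Atp5sl, outside the complex, had 3.27 ± 0.522 and 2.99 ± 0.542 CPM (-0.13, adjusted p = 0.978).

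**Figure D3:**
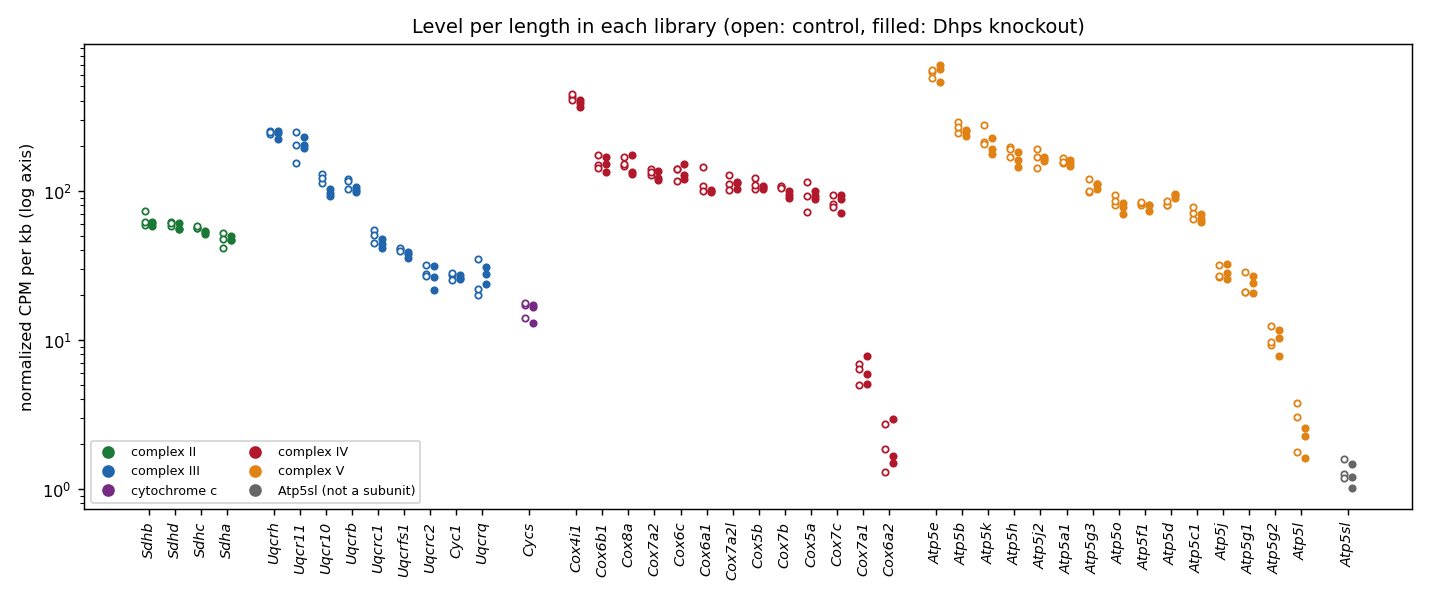
Normalized CPM per kilobase of exon in each library, on a log axis, ordered within each complex by the control mean. Open points are control and filled points knockout libraries. Open and filled points lie close together for each gene, and the differences between genes of a complex are far larger, with Atp5e highest and Atp5sl lowest.

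Levels of genes within a complex differed far more than levels between the groups. Per kilobase, Atp5e was the highest member, at 614 ± 39.2 CPM per kb in the controls and 628 ± 82.1 CPM per kb in knockout libraries, followed by Cox4i1 at 425 ± 22.5 and 385 ± 23.0 CPM per kb. Among the 11 complex IV members at 5 CPM or more, the control level per length spanned 5.05-fold, from Cox7c to Cox4i1. Among the 14 such members of complex V it spanned 58.9-fold, from Atp5g2 to Atp5e. Length here is the summed exon length of the deposited table, which includes untranslated exons, and levels over coding parts alone were not worked out. Cycs lay at 16.3 CPM per kb over 3059 bases, and its shared windows given above make that level uncertain.

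Spread among libraries also differed between members. Over the 39 members at 5 CPM or more, the median coefficient of variation was 8.82% in control and 6.10% in knockout libraries, and it was larger in the controls for 19 of 39. The members with the widest control spread above that level were Uqcrq (31.7%), Cox5a (22.9%), Uqcr11 (22.9%) and Cox6a1 (20.0%). Their knockout coefficients were smaller (1.77% to 13.1%), which a choice by control spread favours in advance. Others went the opposite way, such as Uqcrc2 (8.92% in control, 18.4% in knockout libraries) and Cox8a (6.93% and 17.3%). Non-overlap of the groups occurred on the lower side for 4 members (Sdhc, Uqcr10, Uqcrfs1 and Cox7b, 9.30% of 43), against 5.45% of all genes, and on the higher side for Atp5d (2.33%), against 5.73%. Of the 32 members below 0, 19 stayed below 0 in every fit with 1 library left out. Some of them barely did, such as Atp5a1 (up to -0.0030) and Cox8a (up to -0.0070). These fits share most of their libraries, and no such share over all genes is given.

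**Figure D4:**
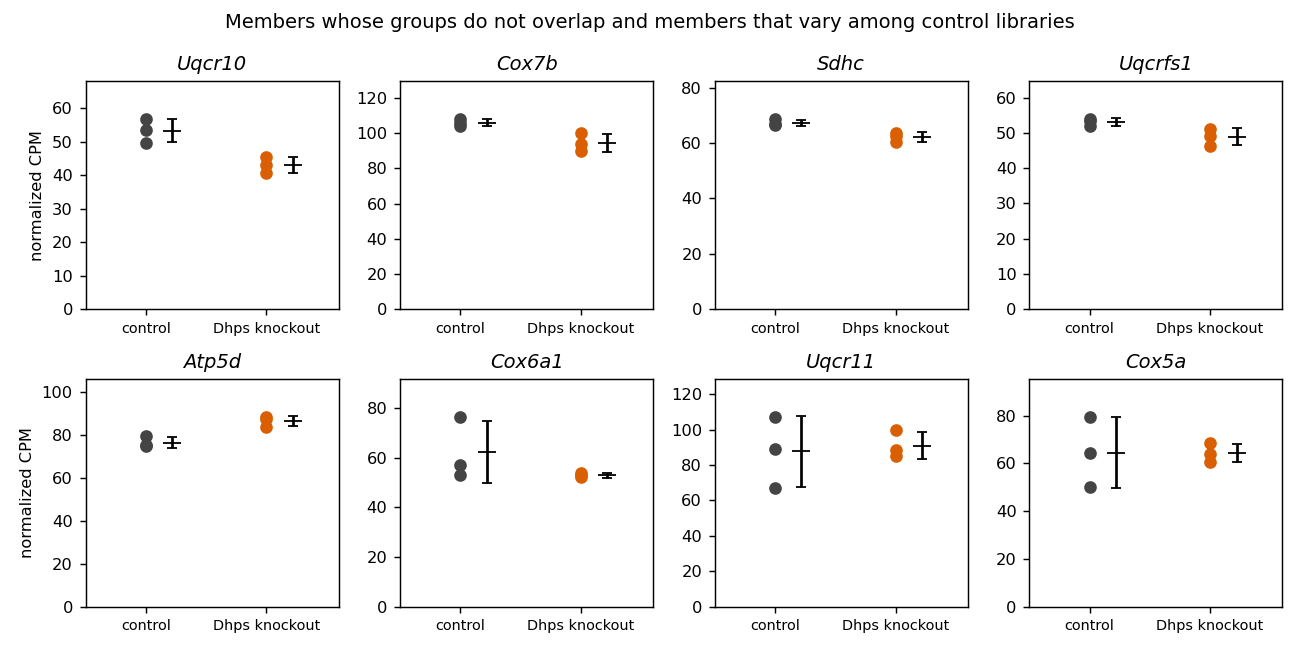
Normalized CPM in each library for the 5 members whose groups do not overlap and for 3 that varied among control libraries, with group mean and SD (n = 3) and axes from 0. Uqcr10, Cox7b, Sdhc and Uqcrfs1 are lower and Atp5d is higher in all knockout libraries, while the control points of Cox6a1, Uqcr11 and Cox5a are spread.

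Other genes of the pathway were taken from lists by function. Of 6 measured subunits and regulators that the names do not cover, 5 were below 0 and none passed. They included Atpif1, the inhibitor of ATP hydrolysis by the synthase, at 137 ± 13.7 CPM in the controls, and 130.1 ± 6.95 CPM in the knockouts (-0.070, adjusted p = 0.959), and Ndufa4, now counted to complex IV, at 70.9 ± 9.29 and 67.9 ± 2.62 CPM (-0.064, adjusted p = 0.968). The mitochondrially encoded subunits mt-Cytb, mt-Co1 to mt-Co3, mt-Atp6 and mt-Atp8 were not analysed here. Carriers that exchange ADP for ATP and import phosphate had log2 fold changes of -0.084 (Slc25a4), 0.033 (Slc25a5) and 0.083 (Slc25a3). Of 25 measured assembly factors of complex IV none passed, 15 were below 0, and the median was -0.032. The smallest p belonged to Oxa1l, the inner membrane insertase, at 12.3 ± 1.58 CPM in the controls, and 9.67 ± 0.895 CPM in the knockouts (-0.35, adjusted p = 0.737). Next came Sco1, a copper chaperone (-0.25, adjusted p = 0.795), Coa3 (-0.25, adjusted p = 0.802) and Coa4 (-0.37, adjusted p = 0.835). None of the 4 measured assembly factors of complex V passed, with Tmem70, which helps to build the c ring, at 0.26 (adjusted p = 0.793).

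Regulators of respiratory gene transcription were centred on 0. Of 12 measured, 6 were above and 6 below 0, none passed, and the median was 0.0090. Nrf1 lay at 28.0 ± 1.81 CPM in the controls, and 26.6 ± 2.53 CPM in the knockouts (-0.074, adjusted p = 0.965), and Gabpa at 47.7 ± 1.67 and 51.9 ± 3.38 CPM (0.12, adjusted p = 0.906). Yy1 (0.19, adjusted p = 0.807), Ppard (0.30, adjusted p = 0.815) and Esrra (-0.14, adjusted p = 0.894) had the smallest p with Gabpa. The 35 measured nuclear subunits of complex I, the other large entry point of electrons, had a median of -0.064 with 25 below 0 and 0 calls, beside the -0.075 of the members. In complex I 3 of the 35 had an unadjusted p under 0.05 in edgeR's test, all on the lower side, against 2.64% of all genes there. No test of a difference between these groups of genes was made.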

How the data were processed

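RNA from 3 control and 3 Dhps knockout libraries was sequenced on an Ion Proton, per the labels' protocols. The authors deposited raw read counts per gene and a summed exon length, which is another kind of value. Per the submitters' processing notes the tools were STAR 2.4.2a, featureCounts, Subread 1.5.0 and edgeR with build mm10; roles, annotation and use of strand are not given in the sources used here. Counts were scaled by TMM and tested over all 10551 genes with edgeR 4.0.16 (quasi-likelihood, two-sided, filterByExpr minimum count 10, which removed 0 genes) in R 4.3.3, with Benjamini-Hochberg adjustment and a threshold of 0.05. SE is the log2 fold change divided by the square root of F. This fit was first run on counts simulated from the same kind of model, with dispersions taken from these data, which cannot test the model. DESeq2 1.42.0, limma 3.58.1 (voom), other size factors and filters, a replicate block, each library left out and removal of a gene-length trend were alternatives. Overlaps and 100-base windows came from GENCODE M21. The planned comparison of protein sequences was not run. Full statistics are given for the members of each complex with the smallest p (3 each, 2 for complex II), the redox and catalytic members, the subunit c genes and Cox7a2l, and for list genes up to 4 by p; others were named after their values were seen. Members and lists were chosen with earlier results of these data known.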

Additional observations from a re-analysis of the deposited data

How the results depend on the processing

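No member was called under any of the 16 alternatives, and the lowest adjusted p of any member was 0.241, for Uqcr10 without control library 1. The number of genes called among all genes was 11, and 22 with DESeq2, 35 with the replicate block, 7 without Lyz2 (an alternative added after seeing the data), and from 4 (without control library 2) to 19 (without control library 1) with 1 library left out. Over all members, the median log2 fold change was -0.051 without size factors and -0.041 with the gene-length trend removed, and from -0.10 to -0.058 with 1 library left out. For complex III it was -0.096 and -0.085 under those 2 settings and from -0.12 to -0.049 (without knockout library 1), for complex IV from -0.12 (without control library 1) to -0.025, and for complex V -0.035 with the length trend removed. The summed CPM of all members, knockout over control, was 0.95, and 0.966 without size factors. Same-numbered libraries had correlations of deviations of 0.139, 0.019 and 0.148, and not every library correlated best with its own number, so the numbers were not taken as pairs. With the block the members' median was -0.075 and 0 members were called. Counts per member and library ran from 12 to 7813, and depth limits the 4 members under 5 CPM most, whose intervals reach past a 1.5-fold change.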
